A study of Mus musculus with 6 samples.

Results

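The genes described are 10 dual-specificity phosphatases that act on MAP kinases or on other signalling kinases, *Dusp1*, *Dusp2*, *Dusp4*, *Dusp5*, *Dusp6*, *Dusp7*, *Dusp8*, *Dusp10*, *Dusp16* and *Dusp22*, of 19505 genes measured. They were chosen by name, with earlier values of the same comparison known, and all 10 were found. Each has a single probe set, so that the rule of keeping the probe set with the highest mean over the 6 arrays changed none of them. Because their values in this comparison were known when the list was drawn up, the fold changes and calls given for them are a description of these arrays and support nothing about the family. RNA was measured in CD4+YFP+ regulatory T (Treg) cells, sorted from peripheral lymph nodes and spleens, on Clariom S mouse arrays. The control cells came from *Foxp3* Cre/wt females, and the *Rbx1*&*Sag*-deficient cells from *Foxp3* Cre/wt females that also carried floxed alleles of *Rbx1* and of *Sag* on both chromosomes. Both groups hold the YFP-Cre fusion in the *Foxp3* gene, and the Treg cells that express it were sorted by YFP. Only the *Rbx1*&*Sag*-deficient group holds floxed alleles for it to recombine. *Foxp3* is X-linked, and the females of both groups therefore also keep Treg cells without Cre, which were not sorted. There were 3 arrays per group, each of RNA pooled from 2 to 3 mice aged 8 to 12 weeks, so that p-values measure the spread between pools and the number of arrays limits the precision.

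MAP kinases are switched on when a kinase above them adds phosphate to a threonine and a tyrosine of their activation loop. Dual-specificity phosphatases take both phosphates off again, and the family members differ in where they sit in the cell and in which of the ERK, JNK and p38 kinases they prefer. Many of their genes are themselves transcribed in response to MAP kinase activity, which makes them a negative feedback on the pathway that also reads out its recent activity. In T cells these kinases lie downstream of the antigen receptor and of cytokine and stress signals.

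The deposited values are log2 signals, and a fold change is the difference of group means on that scale, *Rbx1*&*Sag*-deficient minus control. Array medians over all genes were 4.04 to 4.14 in control and 4.16 to 4.34 in *Rbx1*&*Sag*-deficient cells, whereas upper quartiles were 7.77 to 7.88 and 6.99 to 7.48, so the shapes of the distributions differed between groups. Both targeted genes encode RING subunits of cullin-RING ligases. *Rbx1* was lower by 4.24 (standard error 0.30), with 9.26 to 10.08 in control and 5.04 to 5.84 in *Rbx1*&*Sag*-deficient cells. *Rnf7*, as the array names *Sag*, read 10.93 to 11.47 and 9.65 to 11.39, with groups that overlapped, and was not called lower (log2 difference -0.57, standard error 0.41; limma, adjusted p = 0.379), so that *Rbx1*&*Sag*-deficient is here the name of the genotype. The T cell genes *Cd3e* (16.71 to 18.24) and *Cd4* (13.13 to 14.81) were bright on every array, while *Foxp3* was not analysed here. The sample titles also hold the word muscle, and of the muscle genes *Acta1* (2.85 to 3.28) was below and *Ckm* (4.57 to 5.15) somewhat above the array medians, with no difference called for any of 5 as deposited.

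Of the 10 phosphatase genes, *Dusp10*, *Dusp5* and *Dusp4* rose in *Rbx1*&*Sag*-deficient Treg cells and *Dusp22* fell, at an adjusted p under 0.05 from limma with Benjamini-Hochberg adjustment over 19505 genes. Over all genes, 2.7% were called higher and 9.49% called lower by this rule. *Dusp1* and *Dusp6* had higher means and *Dusp7* a lower mean without passing, and *Dusp2*, *Dusp8* and *Dusp16* had log2 fold changes between -0.10 and 0.28. The groups did not overlap for 6 genes, with the *Rbx1*&*Sag*-deficient values on the upper side for 4 of the 10 and on the lower side for 2 of the 10, against 15.2% and 19.7% of all genes. At the fold change above 2 and unadjusted P under 0.05 that the study's text uses, here with the P of limma, 5 of the 10 were higher and 0 lower, against 2.78% and 10.6% of all genes. With the methods' t-test on log2 values in place of limma these numbers were 4 and 0, and their shares over all genes were not computed. The median log2 fold change of the 10 genes was 0.67 and that of all genes 0.04. After adjustment over all genes, the methods' t-test called 0 of the 10 on log2 values (6 at an unadjusted p under 0.05) and 0 on linear values (2 at an unadjusted p under 0.05). Of all 19505 genes it called 30 on log2 and 26 on linear values, so that 0 of 10 is near the share over all genes. For its counts at an unadjusted p, shares over all genes were likewise not computed.

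**Figure D1:**
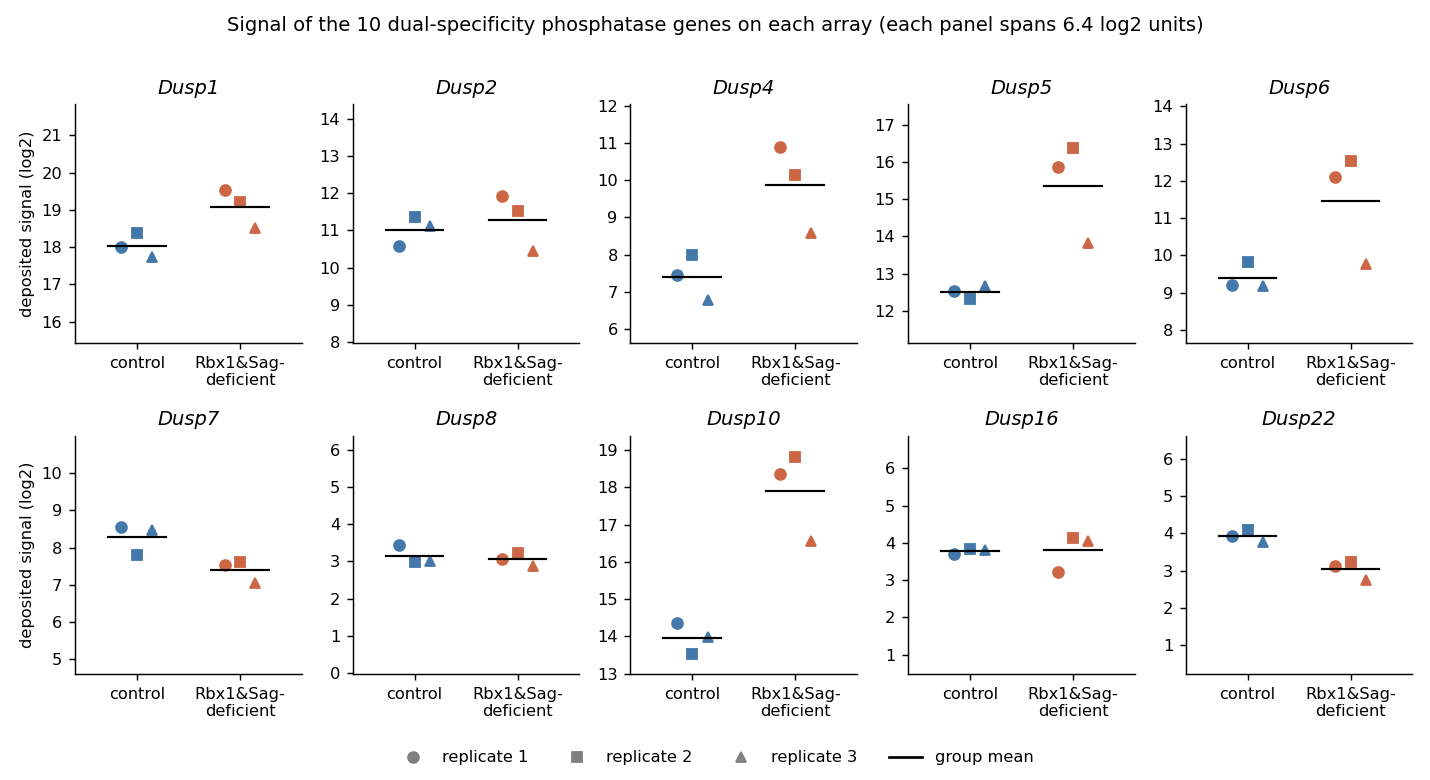
Deposited log2 signal (y axis) of each of the 10 phosphatase genes in the 3 control and 3 *Rbx1*&*Sag*-deficient arrays, 1 panel per gene, with each symbol a replicate and the line the group mean. For *Dusp4*, *Dusp5* and *Dusp10* the groups do not overlap, and deficient replicate 3 lies between the control arrays and the other deficient arrays.

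The largest change among the 10 genes was that of *Dusp10*, which encodes a phosphatase (MKP-5) that prefers JNK and p38 over ERK. It read 14.36, 13.54 and 13.98 in control replicates 1, 2 and 3 and 18.36, 18.82 and 16.56 in *Rbx1*&*Sag*-deficient replicates 1, 2 and 3. The lowest *Rbx1*&*Sag*-deficient array stood well above the highest control array. Its mean went from 13.96 ± 0.41 (SD, n = 3) to 17.91 ± 1.19 (SD, n = 3), a difference of 3.95 ± 0.52 (SE; limma, adjusted p = 0.00282), or 15.5-fold, and it ranked 4 among the rises of all 19505 genes. It passed with limma whichever array was left out, at log2 fold changes of 3.50 to 4.63 and adjusted p of 0.000116 to 0.0231. With the methods' t-test it did not pass (adjusted p = 0.107 on log2 and 0.239 on linear values), and its adjusted p lay between 5.64e-05 and 0.239 over the 19 alternative settings.

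*Dusp8* and *Dusp16* are the other members that prefer JNK and p38, and neither followed *Dusp10*. *Dusp8* read 3.45, 2.97 and 3.02 in control and 3.05, 3.22 and 2.88 in *Rbx1*&*Sag*-deficient replicates, and *Dusp16* read 3.71, 3.83 and 3.81 in control and 3.22, 4.12 and 4.06 in *Rbx1*&*Sag*-deficient replicates. The groups overlapped for both genes, and every value lay below the median of its array, where little difference can be read. The log2 fold change was -0.10 for *Dusp8* (95% interval -0.61 to 0.42) and 0.02 for *Dusp16* (95% interval -0.60 to 0.64), and the sign of either turned under some alternative settings.

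*Dusp1*, *Dusp2*, *Dusp4* and *Dusp5* encode the phosphatases of the family that reside in the nucleus and whose genes are induced by stimulation. *Dusp5*, a phosphatase specific for ERK, read 12.52, 12.31 and 12.66 in control replicates and 15.87, 16.37 and 13.83 in *Rbx1*&*Sag*-deficient replicates. The control arrays were close together and all *Rbx1*&*Sag*-deficient arrays lay above them. *Dusp5* rose 7.26-fold, a log2 difference of 2.86 ± 0.55 (SE; limma, adjusted p = 0.0136), from 12.50 ± 0.18 (SD, n = 3) to 15.36 ± 1.35 (SD, n = 3). Without control replicates 1, 2 or 3 its adjusted p was 0.0557, 0.0675 and 0.0550, at log2 fold changes of 2.87, 2.77 and 2.94, and over its 19 alternatives it ranged from 0.000152 to 0.276.

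*Dusp4*, which acts on ERK, JNK and p38, read 7.44, 7.98 and 6.78 in control replicates and 10.88, 10.14 and 8.58 in *Rbx1*&*Sag*-deficient replicates. Again the groups did not overlap, with deficient replicate 3 closest to the controls. *Dusp4* rose 5.53-fold, a log2 difference of 2.47 ± 0.54 (SE; limma, adjusted p = 0.0213), from 7.40 ± 0.60 (SD, n = 3) to 9.87 ± 1.17 (SD, n = 3). Within its own array it moved from percentile 68.8 to 75.4 of all genes in control to percentile 83.7 to 92.5 in *Rbx1*&*Sag*-deficient cells. Its adjusted p was 0.0738, 0.0558 and 0.0908 without control replicates 1, 2 and 3 and 0.0546 without deficient replicate 1, and it ranged from 0.00140 to 0.291 over its 19 alternatives.

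*Dusp1*, the founding member of the family and a phosphatase of JNK, p38 and ERK, read 18.00, 18.37 and 17.73 in control replicates and 19.53, 19.22 and 18.51 in *Rbx1*&*Sag*-deficient replicates. The *Rbx1*&*Sag*-deficient arrays all lay above the control arrays, by a small margin in replicate 3. The log2 difference of 1.05 ± 0.30 (SE; limma, adjusted p = 0.0541) did not pass, and without deficient replicate 3 it was 1.34 and passed (adjusted p = 0.0134). The brightest gene of each array read 19.59 to 19.93, so *Dusp1* was near the upper end of the scale in every array, and whether this limits its fold change was not tested. The adjusted p of *Dusp1* lay between 0.00461 and 0.239 over 19 alternatives.

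*Dusp2*, a phosphatase of ERK and p38 that is abundant in activated lymphocytes, read 10.57, 11.35 and 11.12 in control replicates and 11.91, 11.51 and 10.45 in *Rbx1*&*Sag*-deficient replicates. Deficient replicate 3 was the lowest of all 6 arrays and deficient replicate 1 the highest, and the groups overlapped. The log2 fold change was 0.28 (95% interval -0.58 to 1.13) and turned to -0.03 without deficient replicate 1. *Dusp2* passed under none of its 19 alternatives (adjusted p of 0.0560 to 0.966).

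*Dusp6* and *Dusp7* encode cytoplasmic phosphatases selective for ERK, and their means moved in opposite directions. *Dusp6* read 9.20, 9.81 and 9.17 in control replicates and 12.11, 12.53 and 9.76 in *Rbx1*&*Sag*-deficient replicates. Deficient replicates 1 and 2 were far above every control, and deficient replicate 3 fell within the range of the controls. The log2 difference of 2.07 ± 0.62 (SE; limma, adjusted p = 0.0597) did not pass, whereas without deficient replicate 3 it was 2.93 and passed (adjusted p = 0.000526). The adjusted p of *Dusp6* lay between 0.000526 and 0.314 over 19 alternatives.

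*Dusp7* read 8.54, 7.81 and 8.48 in control replicates and 7.54, 7.61 and 7.05 in *Rbx1*&*Sag*-deficient replicates. All *Rbx1*&*Sag*-deficient arrays lay below the control arrays. The log2 difference of -0.88 (standard error 0.27; limma, adjusted p = 0.0692) did not pass. It came to -0.28 after quantile normalization, and its adjusted p ranged from 0.0389 to 0.585 over 19 alternatives.

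*Dusp22* encodes an atypical, small member of the family without the MAP kinase-binding domain of the others, which in T cells is known to dephosphorylate the kinase Lck. It read 3.93, 4.08 and 3.78 in control replicates and 3.13, 3.22 and 2.75 in *Rbx1*&*Sag*-deficient replicates. The groups did not overlap. The *Rbx1*&*Sag*-deficient values lay below the lower quartile of their arrays (3.28 and 3.34) in replicates 1 and 3 and just above it (3.18) in replicate 2, in the dim range of the arrays. *Dusp22* fell, with a log2 difference of -0.90 (standard error 0.22; limma, adjusted p = 0.0344), which so near the lower end of the scale is given without a fold. Its adjusted p was 0.104, 0.144 and 0.0915 without control replicates 1, 2 and 3, and 0.0612 and 0.0626 without deficient replicates 1 and 3. Centring on the brighter genes left a difference of -0.30 (adjusted p = 0.342), and its adjusted p lay between 0.0211 and 0.342 over 18 alternatives.

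**Figure D2:**
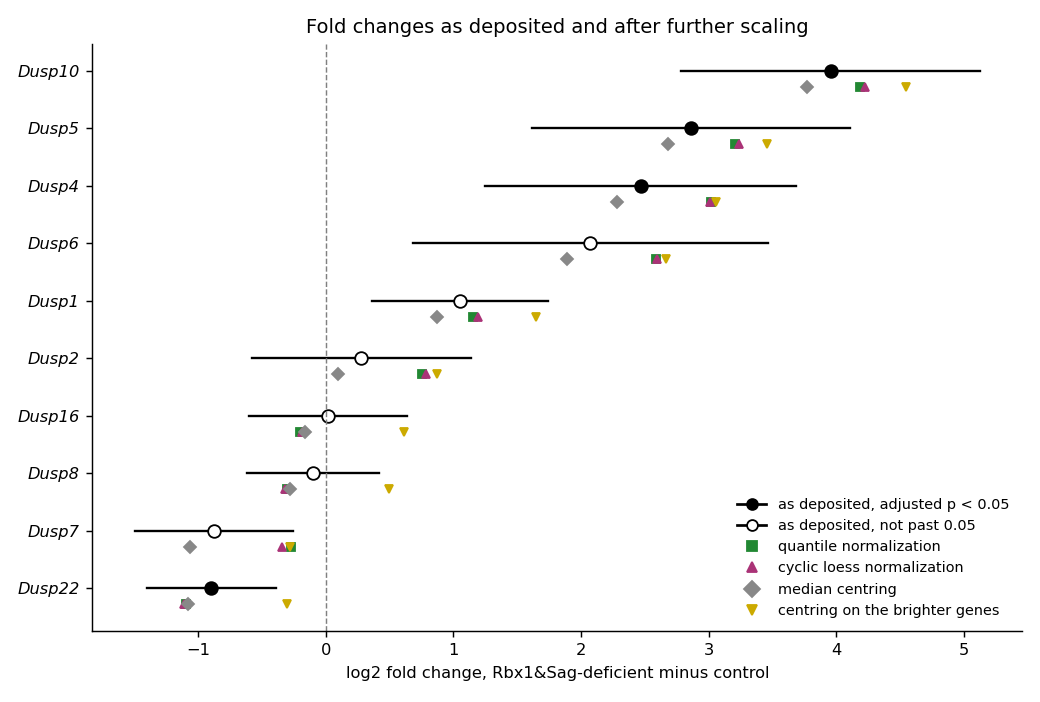
Log2 fold change (x axis, *Rbx1*&*Sag*-deficient minus control) of each phosphatase gene with its 95% interval from limma, with filled circles for an adjusted p under 0.05, and below each the fold change after 4 kinds of further scaling. *Dusp10*, *Dusp5* and *Dusp4* lie between 2.47 and 3.95 as deposited, and quantile and cyclic loess normalization place all 3 farther from 0.

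The scaling moved the fold changes without turning those of the genes that passed. Median centring moved the median fold change of all genes to -0.14 and centring on the brighter genes moved it to 0.64, from 0.04 as deposited. The split of all genes called, 527 higher and 1851 lower as deposited, was 279 and 2502 with median centring, 6966 and 910 with the brighter genes as the centre, 525 and 748 after quantile normalization and 610 and 907 after cyclic loess normalization. *Dusp10* had log2 fold changes of 3.77 and 4.55 under the 2 centrings, and 4.18 and 4.23 after quantile and cyclic loess normalization. *Dusp1*, *Dusp4*, *Dusp5*, *Dusp6* and *Dusp10* were higher, and *Dusp7* and *Dusp22* lower, under every alternative run for them. The signs of *Dusp8* and *Dusp16* were the same as in the main comparison in 16 and 11 of 18 alternatives.

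The arrays within the *Rbx1*&*Sag*-deficient group did not behave alike. Deficient replicate 3 gave the lowest value of its group for 9 of the 10 phosphatase genes, the exception being *Dusp16*, and for all 7 of those whose mean lay above the median signal. Among all genes above the median signal it was the lowest for 48.2%, and among the genes called higher for 25.6%. Relative to the control mean, the 3 *Rbx1*&*Sag*-deficient replicates stood 3.48, 2.74 and 1.18 higher for *Dusp4*, 3.37, 3.87 and 1.33 higher for *Dusp5*, and 4.40, 4.86 and 2.60 higher for *Dusp10*. For these genes the standard deviation was 1.17 to 1.35 in the *Rbx1*&*Sag*-deficient group and 0.18 to 0.60 in control.

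Promoter sequence was taken from RefSeq (GRCm38.p6) for 9 of the 10 genes, as the 250 bases before and 50 bases after a start site, and *Dusp4* had no entry. The windows were searched on both strands for 8 motifs. These were the full CRE (TGACGTCA) and its core (TGACG, which the full CRE contains), the AP-1 site (TGANTCA) and the E-box (CACGTG). The others were the EGR site (GCGTGGGCG or GCGGGGGCG), the CArG box, the NF-κB site and the TATA box (TATAAA). *Dusp5* held 2 CArG boxes, the sites of serum response factor, side by side at positions -82 to -73 and -72 to -63 from its start site, and a CRE core at -55 to -51. A CArG box was found in 1.63% of 32851 windows of this length, and 2 or more in 0.0183% of them. *Dusp1* held a full CRE, found in 1.79% of all windows, at positions -143 to -136, an E-box (7.15% of windows) at -126 to -121 and a further CRE core (20.8% of windows) at -191 to -187. *Dusp2* held an E-box and an EGR site (3.47% of windows) close together. The stretches below show these matches in capitals, for *Dusp5*, which rose, and for *Dusp1* and *Dusp2* of the same nuclear group, and *Dusp10* is given as the gene of the largest rise, in whose window none of the 8 motifs was found.
*Dusp5*, chr19:53529050-53529099, plus strand: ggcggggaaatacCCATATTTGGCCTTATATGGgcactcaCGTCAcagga
*Dusp1*, chr17:26508588-26508672, minus strand: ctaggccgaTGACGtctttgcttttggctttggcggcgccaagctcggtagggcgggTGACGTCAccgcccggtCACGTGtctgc
*Dusp2*, chr2:127336044-127336075, plus strand: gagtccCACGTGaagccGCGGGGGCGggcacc
*Dusp10*, chr1:184034281-184034380, plus strand: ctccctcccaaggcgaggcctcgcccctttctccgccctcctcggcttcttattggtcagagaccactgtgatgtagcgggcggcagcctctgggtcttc

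**Figure D3:**
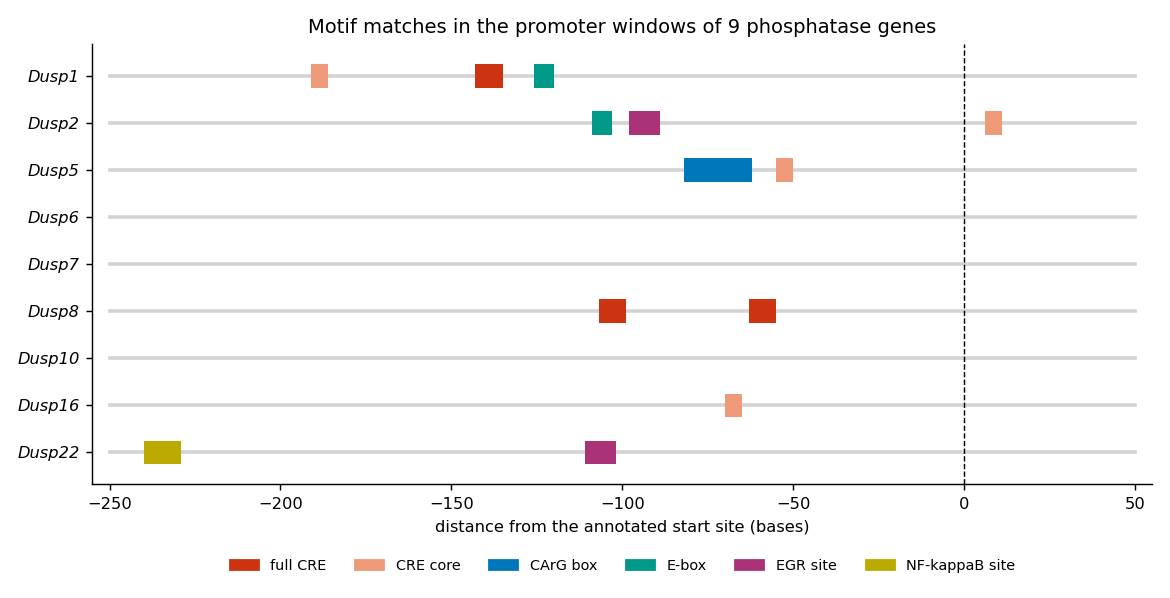
Position of motif matches (coloured blocks) relative to the annotated start site (x axis, bases) in the promoter windows of 9 phosphatase genes. *Dusp5* holds adjoining CArG boxes and *Dusp8* 2 full CREs, and the windows of *Dusp6*, *Dusp7* and *Dusp10* hold no match.

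Among the 9 windows, motifs were found for *Dusp5*, which rose, for *Dusp22*, which fell, and for genes that did not pass. *Dusp4*, which rose, had no window, and a link between motifs and fold changes was not tested. *Dusp8*, dim and with a log2 fold change of -0.10, held 2 full CREs at positions -107 to -100 and -63 to -56, which 0.0396% of all windows do, although this start lies 623 bases inside the outer end of the annotated gene. *Dusp16* held a CRE core, at a start that lies 14435 bases inside the outer end of its gene. *Dusp22* held an EGR site and an overlapping pair of NF-κB sites (8.46% of windows). Of the 9 windows, 6 held at least 1 of the 8 motifs, as 49.7% of all windows did, and 5 held a CRE core, as 20.8% of all windows did. The windows of *Dusp6*, *Dusp7* and *Dusp10* held none of the 8, and no window of the 9 held an AP-1 site (7.81% of windows) or a TATA box (13.6% of windows). A match is a run of letters and was not tested as a binding site.

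The 5 genes whose profile over the 6 arrays was most like that of *Dusp10*, by the root mean square difference after each gene's own mean was taken off, were *Tnfaip3* (0.261), *Sik1* (0.354), *Nr4a2* (0.447), *Irs2* (0.451) and *Ets2* (0.608), all on the log2 scale. *Tnfaip3*, the gene of A20, a brake on NF-κB, read 14.91, 14.62 and 14.48 in control replicates and 19.23, 19.11 and 17.09 in *Rbx1*&*Sag*-deficient replicates. *Sik1*, a salt-inducible kinase, read 8.43, 8.75 and 8.70 in control replicates and 13.37, 13.67 and 11.37 in *Rbx1*&*Sag*-deficient replicates. Like *Dusp10*, each of these 5 genes was lowest of its group in deficient replicate 3. Because they were chosen for likeness to *Dusp10* over these same arrays, this shared low value follows largely from the choice. This likeness is a description over 6 arrays that fall into 2 groups.

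**Figure D4:**
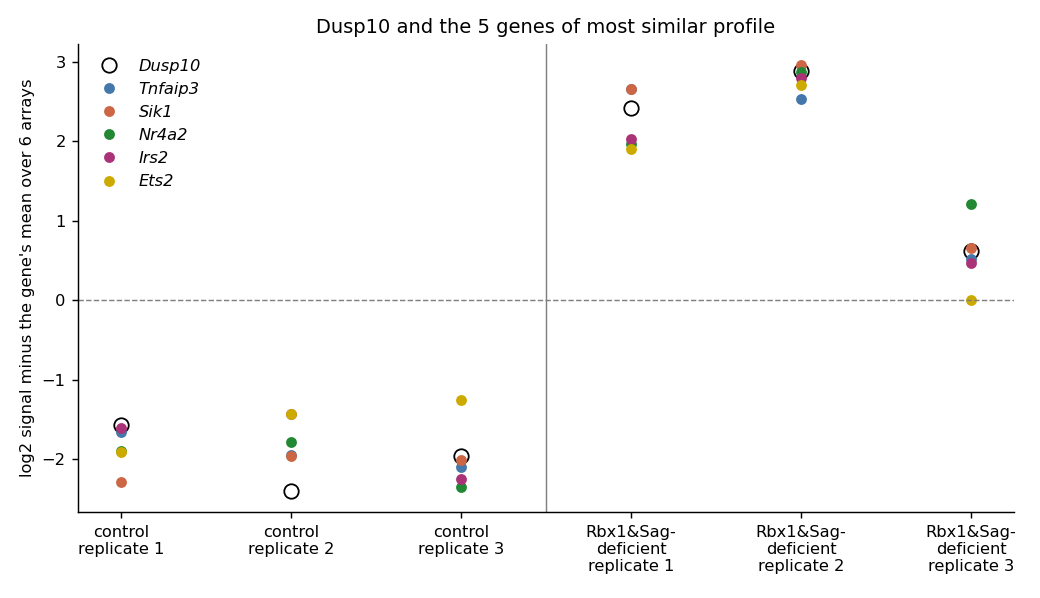
Log2 signal minus the gene's own mean over the 6 arrays (y axis) for *Dusp10* (open circles) and the 5 genes of most similar profile, by array. All 6 genes are lower in the 3 control arrays, and deficient replicate 3 lies below deficient replicates 1 and 2. The 5 genes were chosen for likeness over these same arrays, which favours both patterns.

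Other genes of MAP kinase signalling were set beside the phosphatases from lists written with earlier results of these data known. Of 20 other dual-specificity phosphatases and relatives, *Dusp15* was called higher, and *Dusp19* and *Ssh1*, a phosphatase of cofilin, were 2.31-fold and 2.46-fold lower, while 17 did not pass (limma, adjusted over all genes). The median of that list was -0.06, and over all genes limma called 2.7% higher and 9.49% lower. *Dusp15* was dim, at 2.58 to 3.31 in control and 3.45 to 4.41 in *Rbx1*&*Sag*-deficient cells, and no fold is given for it. It lost its call after median centring (adjusted p = 0.0665), and quantile and cyclic loess normalization called 0 genes of this list, while centring on the brighter genes called 7, all of them higher. Of 17 other restraints of the pathway, *Errfi1*, an inhibitor of the EGF receptor induced by its signalling, rose by 1.83, and *Ptpn7*, a lymphocyte tyrosine phosphatase of ERK and p38, *Nf1*, the GTPase-activating protein of Ras, and *Ptpn5* fell by 2.24, 1.91 and 1.42. *Ptpn7* read 11.93, 12.48 and 12.57 in control replicates and 10.37, 10.31 and 9.58 in *Rbx1*&*Sag*-deficient replicates. It thus moved opposite to *Dusp10*, *Dusp5* and *Dusp4*, without overlap between the groups, and passed in 17 of 19 alternatives, the exceptions being the methods' t-test in its log2 and linear forms. *Errfi1* and *Ptpn5* passed in 11 and 13 of 19 alternatives.

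Few of the kinases of the pathway were called, and those called depended on the scaling. Of 8 measured MAP kinases, limma called 0 (1 higher and 1 lower at an unadjusted p under 0.05), with a median log2 fold change of -0.11. The methods' t-test called 0 on log2 and on linear values, where it called 30 and 26 of all 19505 genes. Centring on the brighter genes called 3 MAP kinases, all higher, where it called 6966 of all genes higher. Quantile and cyclic loess normalization called 1 each, also higher. As deposited, limma called 2.7% of all genes higher and 9.49% lower, and 2214 and 3685 at an unadjusted p under 0.05. Of 6 MAP kinase kinases, *Map2k2*, which activates ERK, fell from a mean of 9.51 to 8.51 and 5 did not pass, and *Map2k2* passed in 9 of 19 alternatives (adjusted p of 0.0233 to 0.304). Of 11 MAP kinase kinase kinases limma called 0 (0 higher and 4 lower at an unadjusted p under 0.05), as did the methods' t-test. Of 6 kinases activated by MAP kinases, *Mapkapk3*, a kinase below p38, fell by 1.51 and 5 did not pass. *Mapkapk3* lost its call under quantile and cyclic loess normalization, at adjusted p of 0.0916 and 0.0825, where 1 gene of that list was called higher and 0 lower. The medians of the last 3 lists were -0.61, -0.41 and -0.64.

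**Figure D5:**
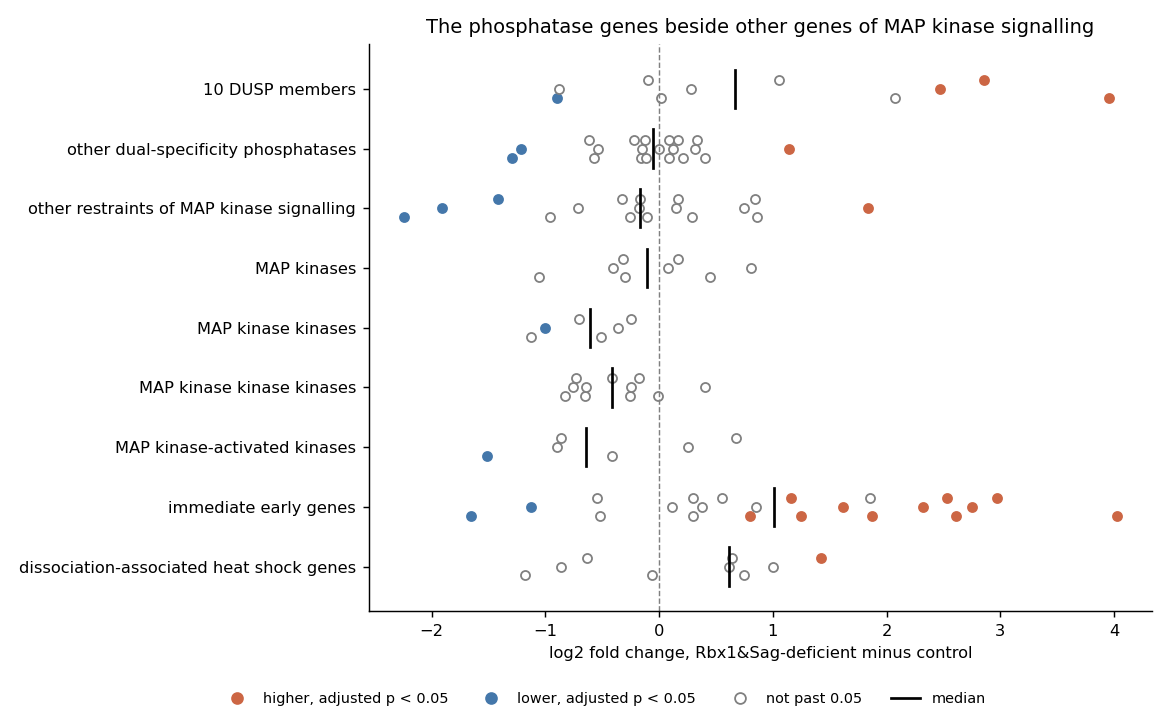
Log2 fold change (x axis) of every measured gene of 9 lists, with filled circles for an adjusted p under 0.05 from limma and a line at each list's median. The 10 phosphatase genes reach from -0.90 to 3.95, while no kinase list holds a gene that passed as higher on the deposited scale, which centring on the brighter genes, quantile and cyclic loess normalization change. On the deposited scale 2.7% of all genes passed as higher and 9.49% as lower.

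Genes that are induced with the phosphatases on stimulation or on handling of cells were measured as well. Of 22 immediate early genes, 11 rose, 2 fell and 9 did not pass, with a median of 1.01, against 2.7% of all genes called higher and 9.49% lower. *Nr4a2* rose by 4.02, *Nr4a1*, its relative, by 2.97, *Klf6* by 2.75 and *Cd69* by 2.53. The 2 that fell were *Egr2* and *Egr3*, by 1.65 and 1.12, targets of antigen receptor signalling that were named after their values were seen. Both lost their call under quantile normalization (adjusted p = 0.0896 and 0.178), under cyclic loess normalization (adjusted p = 0.0798 and 0.153), without control replicate 2 (adjusted p = 0.148 and 0.136) and without control replicate 3 (adjusted p = 0.105 and 0.138). As the mean over its probe sets, *Egr3* lost its call too (log2 difference -0.76; limma, adjusted p = 0.0594). *Egr2* passed in 12 and *Egr3* in 9 of 19 alternatives. The summed signal of this list was 17.24 to 17.46 in control and 18.24 to 19.02 in *Rbx1*&*Sag*-deficient arrays on the log2 scale. Of 9 measured heat shock genes that are known to rise when tissue is dissociated, *Hspa1a* rose by 1.42 and 8 did not pass, with a median of 0.61, and *Hspa1a* passed in 13 of 19 alternatives. Their summed signal was 15.82 to 16.09 in control and 16.38 to 16.69 in *Rbx1*&*Sag*-deficient arrays. This sum of linear signals came mostly from *Hsp90aa1*, at 15.64 to 15.92 in control and 16.31 to 16.57 in *Rbx1*&*Sag*-deficient arrays. *Hsp90aa1* itself did not pass (limma, adjusted p = 0.0778). At an unadjusted p under 0.05 from limma, 3 of the 9 were higher and 2 lower, as were 2214 and 3685 of all 19505 genes. The part of stimulation or handling in the phosphatase values was not tested.

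Some markers of other cells fell. Of 9 myeloid markers 3 fell, of 8 markers of CD8+ T and natural killer cells 2 fell, of 5 B cell markers 1 fell, and none of these rose. Over all genes limma called 9.49% lower and 2.7% higher, so that few rises are found in any list this short. Centring on the brighter genes called 2, 1 and 2 of these lists higher, and 6966 of all 19505 genes. In its log2 and linear forms the methods' t-test called 0 of them, and without control replicate 2 or 3 limma called 0 myeloid markers. The summed log2 signal went from 6.97 to 7.80 in control to 6.54 to 6.73 in *Rbx1*&*Sag*-deficient arrays for the myeloid list, from 9.19 to 9.72 to 8.90 to 9.30 for the CD8+ T and natural killer cell list, and from 7.41 to 7.53 to 6.23 to 6.39 for the B cell list. The defining markers differed in level: 4 of 9 myeloid, 3 of 8 CD8+ T and natural killer cell and 3 of 5 B cell markers were below the median of every array, *Cd79a*, *Ms4a1*, *Cd8a*, *Ncr1* and *Adgre1* among them. In contrast, *Cd8b1* read 8.42 to 9.09 over the 6 arrays without a difference between groups (log2 difference -0.02). *Cd79b* (6.95 to 7.19), *Nkg7* (7.09 to 8.18), *Klrb1c* (4.71 to 5.26) and the myeloid marker *Spi1* (4.66 to 6.25) were above the array medians in control. The 3 myeloid markers that fell were *Spi1*, *Lyz2* and *Fcer1g*. *Spi1* read 2.82 to 3.78 in *Rbx1*&*Sag*-deficient cells. *Lyz2* read 4.08 to 5.59 in control and 3.06 to 3.16 in *Rbx1*&*Sag*-deficient cells, and *Fcer1g* 3.84 to 4.58 and 2.6 to 3.41. Both were above the array median in control replicates 2 and 3 only. The summed signals of the CD8+ T and natural killer cell list overlapped between groups. Their part in the phosphatase values was not tested. Of 8 measured T cell markers 4 fell and none rose, with a summed signal of 19.15 to 19.47 in control and 18.21 to 18.90 in *Rbx1*&*Sag*-deficient arrays, and quantile normalization, cyclic loess normalization and centring on the brighter genes each called 1 of them lower. The 4 were *Ikzf2*, *Cd4*, *Cd3d* and *Cd3g*, with log2 differences of -1.54, -1.07, -0.93 and -0.74 as deposited. In sorted pools, a change in the share of cells that express a gene and a change in RNA per cell cannot be told apart.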

How the data were processed

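The 6 Clariom S mouse arrays were processed by the authors in Affymetrix Expression Console 1.4, and their deposited log2 signals cover 22206 probe sets. Neither the summarization algorithm nor a genome build is given in the sources read. Of the probe sets, the platform annotation names 1 gene for 19572, several for 0 and none for 2634. Keeping the probe set of highest mean per symbol left out 67 and gave 19505 genes, all matched in the RefSeq table of GRCm38.p6. The deposited log2 values were used without further normalization. The comparison used limma (version 3.58.1, R 4.3.3; lmFit, then eBayes), 2-sided and without covariates, and p-values were adjusted by Benjamini-Hochberg over the 19505 genes (threshold 0.05). Alternatives, 19 in all, left out each of the 6 arrays or changed the test, scaling, filter or probe set, among them the methods' t-test (Student's, unpaired, 2-tailed). The code was tested on simulated data. With 3 arrays per group an exact permutation test cannot give a p below 0.1, and none was used.

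The members and all gene lists were chosen with earlier results of these data known. Named genes are all members, of each other list up to 4 genes of smallest p that passed, and the 5 genes most like *Dusp10*. Those 5 were chosen with the members and predicted genes (Gm or Rik names) left out. *Rbx1*, *Rnf7*, *Cd3e*, *Cd4*, *Ckm*, *Acta1*, *Egr2*, *Egr3*, *Hsp90aa1* and defining markers were added. Nothing in the labels names a batch.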

Additional observations from a re-analysis of the deposited data

How the results depend on the processing

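The direction of *Dusp1*, *Dusp4*, *Dusp5*, *Dusp6*, *Dusp7*, *Dusp10* and *Dusp22* did not turn under any alternative run, but the counts of calls moved, and the causes were not tested. Whether run on log2 or linear values, the methods' t-test called 0 phosphatase genes higher and 0 lower, and 0 genes of each kinase, phosphatase, restraint, immediate early, heat shock and marker list. Of the 10 phosphatase genes, 5 were higher (3 in the main comparison) with an intensity trend, array weights, centring on the brighter genes, cyclic loess normalization and only the genes above the median signal, the added genes being *Dusp1* and *Dusp6*. Median centring called 2 lower, and 0 were lower when centred on the brighter genes or over the genes above the median signal, among which *Dusp22* is not tested. Of the other dual-specificity phosphatases 7 were called, all higher, after centring on the brighter genes (1 higher and 2 lower as deposited) and 0 after quantile and cyclic loess normalization, and of the MAP kinases 3, 1 and 1, all higher. Of the MAP kinase kinases 0 were called with an intensity trend and under each of these 3 settings. Of the MAP kinase kinase kinases 1 was called with array weights and median centring (lower) and with centring on the brighter genes (higher). Centring on the brighter genes called 2 MAP kinase-activated kinases (1 higher, 1 lower) and 7 other restraints (5 higher, 2 lower). The 1 MAP kinase-activated kinase called was higher, not lower, after quantile and cyclic loess normalization and without deficient replicate 3. Heat shock genes called were 2 with an intensity trend, 2 with array weights, 5 after centring on the brighter genes and 3 after quantile and cyclic loess normalization.

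With 1 array left out, 1 to 5 phosphatase genes were higher and 0 to 1 lower: *Dusp10* alone without control replicates 1, 2 or 3, and 5 without deficient replicate 3. The other lists had 0 to 3 calls (other dual-specificity phosphatases), 0 (MAP kinases), 0 to 3 (MAP kinase kinases), 0 to 1 (MAP kinase kinase kinases), 0 to 2 (MAP kinase-activated kinases), 2 to 5 (other restraints), 5 to 14 (immediate early genes) and 0 to 3 (heat shock genes). Arrays of the same replicate number share only that number, with correlations of their deviations from the group mean of 0.0088, 0.11 and 0.021, and control replicate 1 correlated best with deficient replicate 3 (0.11). With the replicate block, 5 phosphatase genes were higher. Signal over background limits *Dusp8*, *Dusp15*, *Dusp16* and *Dusp22*, which were near or below the array medians.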
